A study of Mus musculus with 2 samples.

Results

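Interferon-stimulated effector genes are the genes whose products carry out the antiviral state: proteins that tag other proteins, bind or destroy viral RNA, hold virus particles at membranes or remodel antiviral signalling. They were looked up by name in RNA sequencing of mouse ear epidermis, as 34 symbols that leave out the oligoadenylate synthetases, the interferon regulatory factors, the STATs and the sensors of nucleic acids. Rows were found for 33 of the 34 among the 26242 genes of the table, and no row carried the name Ifi27. The symbols were picked by name and not by their values, but with earlier results of these data known.

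Both libraries came from C57BL/6 mice whose ears had received 5% imiquimod cream, an agonist of Toll-like receptor 7, on 6 days in a row. The first library was from wild-type mice, and the other from mice with the genotype K14 conditional Il9ra KO, in which the deletion of the interleukin-9 receptor gene is tied by its name to keratin 14, a keratin of basal keratinocytes. The sheet also holds cells that do not express keratin 14, such as Langerhans cells and T cells. On age, sex and number of the mice behind a library nothing is given in the sources used here, untreated skin was not analysed here, and there was 1 library per genotype, here called wild-type and knockout epidermis. No difference could therefore be set against a spread between animals, and no p-value was computed. Levels are in FPKM, which counts the fragments of a transcript per kilobase and scales them to the library, from libraries estimated at about 23900000 fragments for the wild type and 31200000 for the knockout.

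Cells make these proteins when type I interferon binds the receptor of Ifnar1 and Ifnar2 and the kinases Jak1 and Tyk2 activate transcription factors of the STAT family. A complex that holds Stat2 and Irf9, called ISGF3, then binds the interferon-stimulated response element in the promoters of target genes. In skin, keratinocytes both make and answer interferons, and imiquimod acts on plasmacytoid dendritic cells, a strong source of type I interferon.

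Il9r, the targeted gene, was at the floor of both libraries, with 0.039 FPKM in wild-type and 0.011 FPKM in knockout epidermis or about 4 and 1 fragments, too few to check the genotype labels. Krt14 and Krt5, the keratins of the basal layer, were at 7421 and 4119 FPKM in wild-type and at 8083 and 4401 FPKM in knockout epidermis. The endothelial genes Cdh5 and Kdr were listed at 0 in both libraries, and the collagen genes Col1a1, Col1a2 and Col3a1 were at or below 0.29 FPKM in both. On the same list of endothelial and fibroblast markers, Dcn was at 2.02 FPKM in wild-type and 1.59 FPKM in knockout epidermis. Pecam1 was at 1.21 and 0.79 FPKM. How much dermis the sheets held was not tested.

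The effector genes were higher in knockout epidermis in 32 of 33 cases, against 44.8% of the 18179 genes listed above 0 in at least 1 library. On the log2(FPKM + 1) scale, which damps differences of low genes, 6 of the 33 were at least 2-fold higher in knockout epidermis, where 0.27% of all genes were, and 0 were at least 2-fold lower, where 0.226% of all genes were. The 6 were Isg15, Rtp4, Bst2, Ifit1, Ifi44 and Xaf1. Their number depends on the added value, since with 0.1 FPKM in place of 1 it was 12 (all genes, 361), and with 5 FPKM it was 1 (all genes, 16). Another 9 members had log2 differences from 0.5 up to 1, and 17 lay between 0 and 0.5. The exception was Ifitm1, at 0.24 FPKM in wild-type and 0.20 FPKM in knockout epidermis. The median log2 difference of the 33 genes, knockout minus wild type, was 0.45, and that of all genes was -0.02, with 5% of genes below -0.31 and 5% above 0.28.

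**Figure D1:**
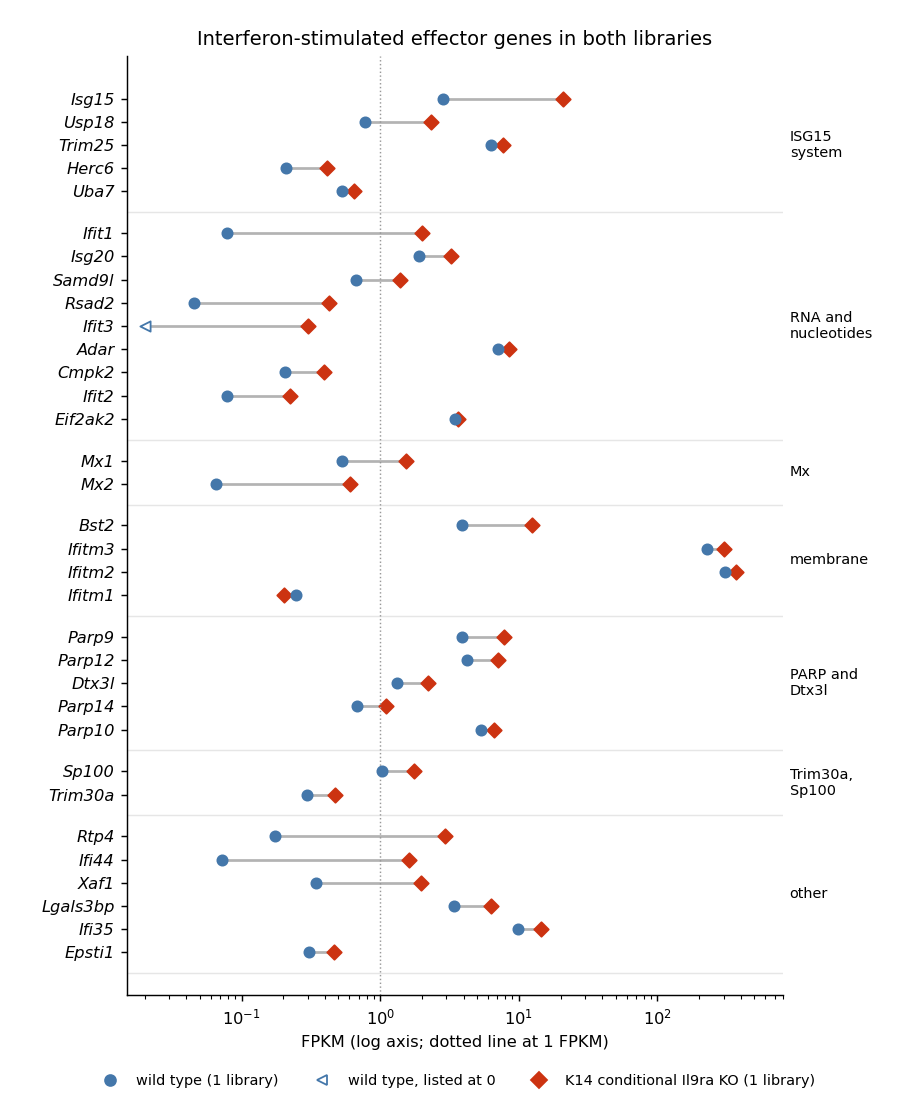
FPKM of the 33 effector genes on a log axis, grouped by role, with circles for the wild-type and diamonds for knockout epidermis, 1 library each and so without error bars; the open triangle marks Ifit3, listed at 0 in wild-type epidermis. The knockout value lies to the right of the wild-type value for every gene but Ifitm1, and the longest lines belong to genes under 1 FPKM in wild-type epidermis and to Isg15.

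Most effector genes were scarce in wild-type epidermis. In that library 18 were under 1 FPKM, 9 were between 1 and 5 FPKM and 6 were at 5 FPKM or above. A filter of 1 FPKM in either library would keep 23 of the 33, and 8 of those would pass through knockout epidermis alone, so the counts use no filter on level. Of the 18 genes under 1 FPKM, 17 were higher in knockout epidermis, against 47.5% of the 6509 genes at that level, and 4 at least 2-fold, against 0.446%. Of the 9 genes between 1 and 5 FPKM all 9 were higher, against 47.7%, and 2, Isg15 and Bst2, at least 2-fold, against 0.411%. The 6 most abundant genes were Trim25, Adar, Ifitm2, Ifitm3, Parp10 and Ifi35. All 6 were higher, against 41.7% of the 8509 genes at 5 FPKM or above, and none at least 2-fold, against 0.0823%. Their median log2 difference was 0.27, and that of all genes at that level was -0.03. Over the upper 2 tiers together, 15 of 15 members were higher where 43.4% of 11670 genes were, and 2 at least 2-fold where 0.171% were.

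**Figure D2:**
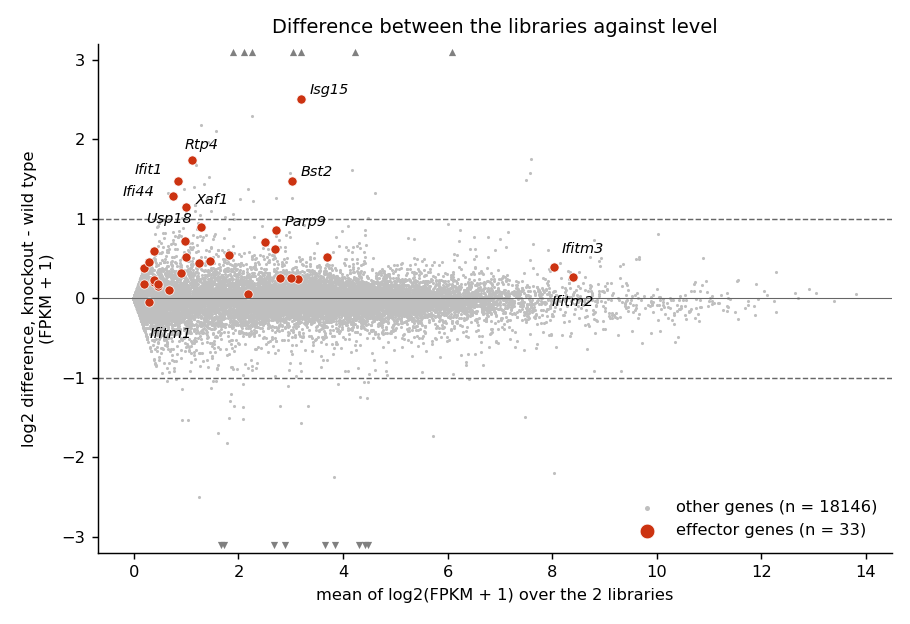
Log2 difference, knockout minus wild type, against the mean level of each gene, both on the log2(FPKM + 1) scale, for 18146 other genes (grey) and the 33 effector genes (red); dashed lines mark 2-fold, and triangles at the edges stand for 16 other genes beyond a log2 difference of 3. The red points lie above a difference of 0, apart from Ifitm1, and Isg15 is the highest of them at 2.50.

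The interferon-stimulated response element is the letters through which ISGF3 reaches these genes. Promoter sequence is therefore shown for some members with large differences and for Trim25. Sequences are the 250 bases before the annotated start, from RefSeq on GRCm38.p6, the assembly also called mm10, read 5′ to 3′ on the strand of the gene. Capitals mark matches to the core of the element, GAAA, any 2 bases and GAAA again, on either strand, so that a match on the other strand reads TTTC, any 2 bases and TTTC. Of Ifit1 only the stretch with its matches is shown, because annotated exons cover 123 of the 250 bases. Isg15, Bst2, Ifit1 and Xaf1 are at least 2-fold higher in knockout epidermis, and Trim25, at 0.25, has one of the smallest differences among the abundant members. The same choice named Ifi44 and Lgals3bp, for large differences, and Adar, for a small one. They are not printed, and their windows hold no match. Rtp4 has no RefSeq promoter entry. Ifitm1 and Eif2ak2, with the lowest differences of all members, were too scarce for the choice. The printed set therefore cannot show how matches and differences go together.
Isg15, chr4:156200819-156201068, minus strand: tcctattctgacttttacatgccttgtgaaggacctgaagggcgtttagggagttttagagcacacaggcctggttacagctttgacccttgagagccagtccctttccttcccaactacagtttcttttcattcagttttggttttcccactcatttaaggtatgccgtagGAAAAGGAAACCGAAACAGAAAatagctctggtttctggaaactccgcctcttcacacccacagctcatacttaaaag
Bst2, chr8:71537473-71537722, minus strand: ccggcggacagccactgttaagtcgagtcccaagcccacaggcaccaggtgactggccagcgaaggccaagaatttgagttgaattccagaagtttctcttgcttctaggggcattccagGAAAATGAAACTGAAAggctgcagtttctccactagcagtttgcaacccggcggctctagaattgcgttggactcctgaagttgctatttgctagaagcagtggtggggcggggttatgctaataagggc
Ifit1, chr19:34640785-34640813, plus strand: TTTCACTTTCcagtctcagTTTCAGTTTC
Xaf1, chr11:72301379-72301628, plus strand: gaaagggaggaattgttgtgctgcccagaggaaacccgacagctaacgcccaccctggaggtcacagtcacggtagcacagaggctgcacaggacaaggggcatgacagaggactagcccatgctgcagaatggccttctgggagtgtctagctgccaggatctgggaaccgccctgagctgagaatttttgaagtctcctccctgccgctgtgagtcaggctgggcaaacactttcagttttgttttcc
Trim25, chr11:88999153-88999402, plus strand: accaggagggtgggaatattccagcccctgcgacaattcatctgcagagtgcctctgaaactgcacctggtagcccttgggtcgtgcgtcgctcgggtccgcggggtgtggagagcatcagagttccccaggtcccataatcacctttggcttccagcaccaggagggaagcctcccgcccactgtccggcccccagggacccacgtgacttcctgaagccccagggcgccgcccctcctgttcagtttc

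The element of Isg15 is a run in which 3 matches follow each other, from 78 to 57 bases before the start, and each shares 4 bases with the next. Bst2 has 2 matches that overlap in the same way, from 130 to 115 bases before the start. Ifit1 has 2 separate matches on the opposite strand, from 104 to 95 and from 85 to 76 bases before the start. The windows of Xaf1 and Trim25 hold no match to these letters. That says only that these exact letters are not in the window.

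Among the 26 members with an entry in the RefSeq promoter table, 9 (34.6%) had a match to the response element core in the 300 bases from 250 before to 50 after the start. Of 12147 genes above 0 with an entry, 460 (3.79%) had one. The 9 were Isg15, Ifit1, Ifit3, Rsad2, Eif2ak2, Bst2, Ifitm2, Ifitm3 and Trim30a. Of the 16 matches in their windows 11 lay within the 150 bases before the start. The second motif searched was the gamma-activated sequence TTCNNNGAA, which is its own reverse complement and is bound by dimers of STAT proteins, and which 7 of the 26 members (26.9%) and 8.40% of the 12147 genes held. In 2 cases, in Bst2 and in Ifitm3, the motifs overlapped each other. The median log2 difference was 0.39 for the 9 members with a response element match and 0.44 for those without, while 3 members with a match and 2 without were at least 2-fold higher. A match is a description of letters and does not show binding.

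**Figure D3:**
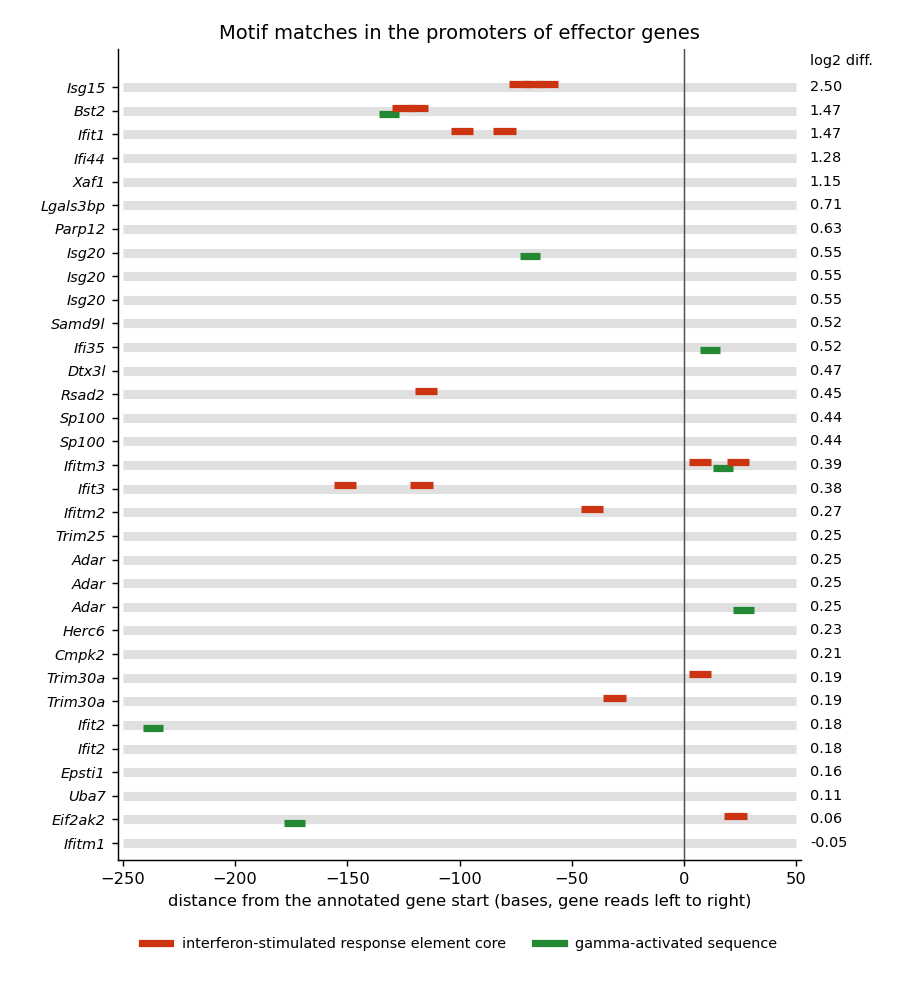
Motif matches in 33 promoter windows of 26 effector genes, drawn as distance in bases from the annotated start and ordered by log2 difference (right, log2(FPKM + 1) scale); genes with several annotated starts have several bars. Red marks of the response element core lie mostly in the 150 bases before the start, and they occur in Isg15, at 2.50, as well as in Eif2ak2, at 0.06.

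The ISG15 system attaches the ubiquitin-like protein ISG15 to other proteins and takes it off again, and its modifier differed far more than its enzymes. Isg15 (ENSMUSG00000035692, minus strand of chromosome 4) was at 2.83 FPKM in wild-type and 20.7 FPKM in knockout epidermis, 7.32-fold higher and 8 in rank among the 18179 genes by log2 difference. These values correspond to about 51 and 489 fragments. Usp18, the protease that removes ISG15 and also dampens the interferon receptor, was at 0.78 and 2.31 FPKM, 2.97-fold higher. The enzymes that join ISG15 to its targets lay closer together: Uba7, the activating enzyme, was at 0.53 and 0.65 FPKM, and Trim25, a ligase for ISG15 and for the RNA sensor RIG-I, was at 6.33 and 7.73 FPKM. Herc6, the main ISG15 ligase of the mouse, was at 0.21 FPKM in wild-type and 0.42 FPKM in knockout epidermis, 1.98-fold higher. Uba7 and Trim25 were each 1.22-fold higher, so the joining enzymes had smaller folds than the protease and the modifier.

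The IFIT proteins bind viral RNA, mainly through its 5′ end, and their genes lie close together on chromosome 19. Ifit1 was at 0.078 FPKM in wild-type and 1.99 FPKM in knockout epidermis, about 5 and 165 fragments. The ratio of 25.4 is the highest of the members listed above 0 in wild-type epidermis, and it rests on those few wild-type fragments. Ifit2, 90.2 kb from Ifit1, was at 0.079 and 0.22 FPKM, about 7 and 27 fragments. Ifit3, 57.3 kb from Ifit1, was listed at 0 in wild-type epidermis and at 0.30 FPKM in knockout epidermis, about 16 fragments. The wild-type levels of Ifit1 and Ifit2 were alike, so the neighbours parted in knockout epidermis, where Ifit1 was far above the other two. Ifit3 is 97.8% identical to Ifit3b over 97.4% of its transcript, so reads of the pair may have been divided between them. The row of Ifit3b, under its older name I830012O16Rik, was likewise at 0 in wild-type and at 0.12 FPKM in knockout epidermis.

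Rsad2 and Cmpk2 are neighbours on chromosome 12 whose products act on nucleotides: viperin, from Rsad2, makes a chain-terminating nucleotide, and Cmpk2 is a mitochondrial nucleotide kinase. Rsad2 was at 0.045 FPKM in wild-type and 0.43 FPKM in knockout epidermis, about 4 and 51 fragments. Cmpk2 was at 0.21 and 0.39 FPKM, about 16 and 39 fragments. Cmpk2 was the more abundant of the pair in wild-type epidermis, and in knockout epidermis both were at a like level. The other genes of this role act on RNA or on translation. Isg20, a 3′ to 5′ exonuclease, was at 1.91 and 3.26 FPKM, and Samd9l, an antiviral regulator of translation, at 0.66 and 1.38 FPKM. Adar, the RNA-editing deaminase ADAR1, was at 7.04 and 8.53 FPKM. Eif2ak2, the RNA-dependent kinase PKR, was at 3.47 and 3.64 FPKM, the smallest difference of the 32 higher members, from a row that merges it with Gm6548. Adar and Eif2ak2 were thus present at several FPKM in both libraries with log2 differences of 0.25 and 0.06. Adar shares 1365 of its 8118 exonic bases with Chrnb2 on the other strand, so its level may include reads of that gene.

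Mx1 and Mx2 encode dynamin-like GTPases that block viral replication, and C57BL/6 mice, like most laboratory strains, carry a defective Mx1. The RefSeq accessions of both rows are of the non-coding kind. Mx1 was at 0.53 FPKM in wild-type and 1.54 FPKM in knockout epidermis, 2.88-fold higher. Mx2 was at 0.065 and 0.61 FPKM, about 4 and 46 fragments. The pair lie 72.4 kb apart between their starts on chromosome 16 and are 96.1% identical over 24.0% of the Mx1 transcript, so some of their reads could be exchanged.

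Among the membrane proteins, Bst2 had a larger fold than the abundant IFITM genes. Bst2 (ENSMUSG00000046718, minus strand of chromosome 8) encodes tetherin, which holds budding virus at the cell surface. It was at 3.88 FPKM in wild-type and 12.5 FPKM in knockout epidermis, 3.23-fold higher, about 74 and 310 fragments. Ifitm2 and Ifitm3, which block the entry of viruses at endosomal membranes, were by far the most abundant members, at 307.5 and 228.4 FPKM in wild-type epidermis. In knockout epidermis they were at 371.8 and 299.9 FPKM, 1.21-fold and 1.31-fold higher. Their log2 differences were 0.27 and 0.39. Of all genes at 5 FPKM or above in wild-type epidermis, 5% had a log2 difference above 0.247. Ifitm1 lies 11.2 kb from Ifitm2 in the same cluster on chromosome 7, and it was near the floor of both libraries at about 5 and 6 fragments. With Bst2 and Ifitm1, the IFITM genes held 90.7% of the summed FPKM of all 33 members in wild-type epidermis. The sum of the 33 was therefore 1.33-fold higher in knockout epidermis, from 595.7 to 793.5 FPKM, whereas without Ifitm2 and Ifitm3 the sum was 2.04-fold higher, from 59.8 to 121.7 FPKM. Transcripts of several annotated gene models align to those of Ifitm2 and Ifitm3 at 90% identity or more, among them Gm11951 at 97.0% over 66.0% of Ifitm2, so their single values are uncertain to that extent. The Isg15 transcript aligns to AC151275.1 at 95.2% over 63.8% of its length, and Sp100 to Gm2619 at 98.7% over 379 bases.

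ADP-ribosyltransferases add ADP-ribose to proteins. All 5 members of this role were higher in knockout epidermis, against 44.8% of all genes above 0, with log2 differences from 0.26 to 0.87. Parp9 and Dtx3l form a complex that modifies histones and ubiquitin. Parp9 was at 3.86 FPKM in wild-type and 7.86 FPKM in knockout epidermis, 2.03-fold higher. Dtx3l was at 1.32 and 2.22 FPKM, 1.68-fold higher. The genes start 681 bases apart on opposite strands of chromosome 16 and share 458 exonic bases, and for the use of strand in counting nothing is given in the sources used here, so reads from the shared bases cannot be told apart. Parp14, 66.9 kb from Parp9 between their starts, was at 0.68 and 1.09 FPKM. Parp12, which acts on viral replication and stress granules, was at 4.20 and 7.03 FPKM, and Parp10 at 5.37 and 6.63 FPKM. The 3 genes on chromosome 16 and Parp12 had ratios from 1.61 to 2.03, and Parp10 a ratio of 1.23.

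Of the genes with other roles, 3 of the 6 found were at least 2-fold higher, against 0.27% of all genes above 0. Rtp4, a chaperone-like protein of receptor transport that is strongly induced by interferon, was at 0.17 FPKM in wild-type and 2.93 FPKM in knockout epidermis. The ratio of these values, 16.95, rests on only about 7 wild-type fragments, as that of Ifit1 rests on about 5. Ifi44, a cytoplasmic protein that binds GTP, was at 0.072 and 1.61 FPKM, with about 5 fragments in wild-type epidermis. Xaf1, which counters the apoptosis inhibitor XIAP, was at 0.35 and 1.98 FPKM, 5.72-fold higher and about 22 and 160 fragments. These 3 genes were all at or below 0.35 FPKM in wild-type epidermis and above 1.6 FPKM in knockout epidermis. Lgals3bp, a secreted galectin-binding glycoprotein, was at 3.43 and 6.26 FPKM. Ifi35, an interferon-induced leucine zipper protein, was at 9.82 and 14.5 FPKM, and Epsti1 at 0.31 and 0.46 FPKM. Sp100, a scaffold of nuclear bodies, was at 1.04 and 1.76 FPKM. Trim30a, a mouse ubiquitin ligase that limits NF-kappa-B signalling, was at 0.30 and 0.48 FPKM and aligns to its neighbour Trim30d at 90.1% identity over 45.6% of its transcript.

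The RefSeq gene list gives Ifi27l1 as an older symbol of Ifi27, so its value can be given beside the members, outside the rule by which they were found. Ifi27l1 was at 38.4 FPKM in wild-type and 34.5 FPKM in knockout epidermis. Ifi27l2a, a related gene at the same locus that is strongly induced by interferon, was at 45.4 and 87.4 FPKM, 1.92-fold higher. Ifi27l2b was at 0.039 and 0 FPKM. The family thus held an abundant gene with a lower value and an abundant gene with a higher value in knockout epidermis.

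The authors' deposited table holds a test of these 2 libraries against each other, which does not compare the genotypes. Of the members, Isg15 alone had a q below 0.05 in the authors' deposited table, at p = 5e-05 and q = 0.041, and 0.0342% of all rows were higher in knockout epidermis with such a q. A p below 0.05 was given in the authors' deposited table to 11 members, all higher in knockout epidermis, where 0.643% of all rows and 1.15% of rows with a test statistic other than 0 were. They were Isg15, Bst2, Xaf1, Parp9, Rtp4, Samd9l, Usp18, Parp12, Ifi44, Ifit1 and Mx1, and in the authors' deposited table the 10 other than Isg15 had q from 0.28 to 1.00. Of Ifit2, Ifit3 and Ifitm1 the authors' deposited table gave p = 1 and a test statistic of 0.

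Upstream of the effector genes, Stat2 and Irf9 were higher in knockout epidermis and the genes of the type I receptor were not. Stat2 was at 4.34 FPKM in wild-type and 6.74 FPKM in knockout epidermis, and Irf9 at 11.1 and 18.0 FPKM. These genes are themselves targets of interferon. Of the receptor genes, Ifnar1 was at 3.69 and 3.38 FPKM, and Ifnar2 was lower in knockout epidermis at 6.11 and 4.41 FPKM. The kinase gene Jak1 was at 46.3 and 42.7 FPKM, with Tyk2 at 6.55 and 6.41 FPKM. Ifngr1, a chain of the interferon-gamma receptor, was at 25.2 and 33.0 FPKM. Of the 11 receptor and JAK-STAT genes found, 5 were higher and 6 lower, none at least 2-fold, with a median log2 difference of -0.02. The interferon transcripts that had a row were at the floor: 13 of 17 ligand rows were listed at 0 in both libraries, Ifng among them. Of the 21 ligand symbols looked up, Ifna15, Ifna16, Ifnl2 and Ifnl3 had no row, and neither had the receptor gene Ifnlr1. Ifnb1 was listed at 0 in wild-type and at 0.051 FPKM in knockout epidermis, and Ifnk and Ifne, the interferons named for keratinocytes and epithelium, at 0.061 and 0.084 FPKM in wild-type epidermis and at 0 in knockout epidermis.

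Other interferon-induced families were set beside the effector genes for scale. Oligoadenylate synthetases that are active enzymes make the messenger that triggers RNA decay, and RNase L senses it. Of 11 rows of synthetases and RNase L above 0, active or not, 8 were higher, against 44.8% of all genes above 0. At least 2-fold higher were 2 of them, against 0.27%, and the median log2 difference was 0.62. Oasl2 was at 0.43 FPKM in wild-type and 5.14 FPKM in knockout epidermis, and Oas1a at 1.64 and 5.29 FPKM, whereas the most abundant, Oas1f, was at 124.5 and 114.6 FPKM. The interferon-gamma-inducible GTPases attack vacuoles of pathogens. All 16 of their rows above 0 were higher, against 44.8% of all genes above 0, with a median of 0.16. Only 3 of these rows reached 1 FPKM in either library, and several of the others were near the floor in both. Gbp2 led them at 0.38 and 2.62 FPKM, followed by Gbp3 at 0.10 and 0.95 FPKM and Irgm1 at 1.22 and 2.88 FPKM. Of 13 further interferon-gamma targets 4 were higher and 9 lower, where 44.8% of all genes above 0 were higher, with a median of -0.04. Among these Cxcl10, a chemokine, was at 9.33 and 5.35 FPKM, Psmb8, a subunit of the immunoproteasome, at 19.4 and 14.8 FPKM, and Icam1, an adhesion molecule, at 29.0 and 23.4 FPKM. Cxcl9, another chemokine and one of the 4 higher targets, was at 0.090 FPKM in wild-type and 0.40 FPKM in knockout epidermis. The difference between the lists was not tested.

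**Figure D4:**
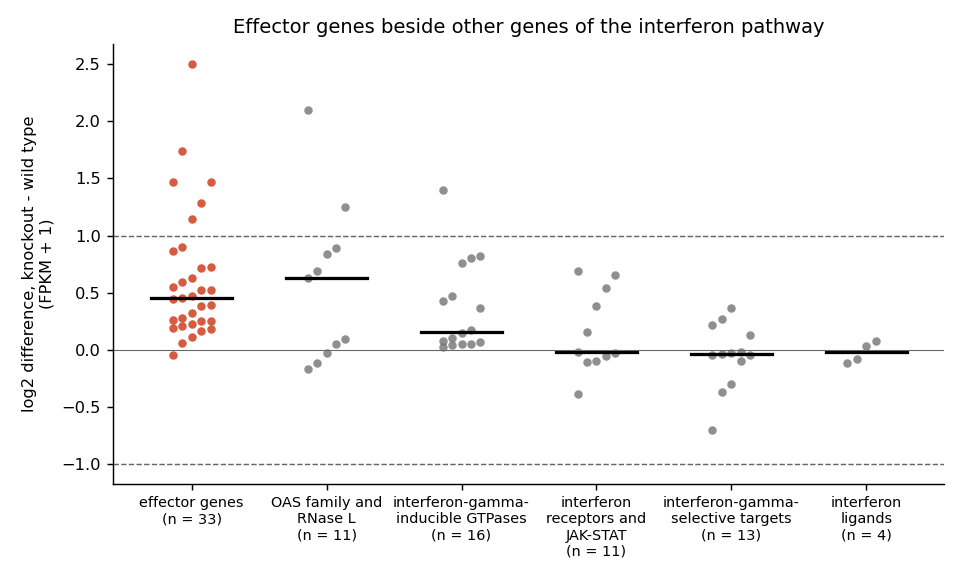
Log2 difference, knockout minus wild type on the log2(FPKM + 1) scale, of each gene above 0 in at least 1 library, for the effector genes (red) and 5 other interferon lists (grey); bars are medians and dashed lines mark 2-fold. The medians run from 0.62 for the oligoadenylate synthetases and 0.45 for the effector genes to -0.04 for the further interferon-gamma targets.

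Markers of other cells in the sheet had higher, lower or like values, and their part in the difference of the effector genes was not tested. In bulk RNA, fewer cells of a type and less RNA per cell cannot be told apart. Of 12 Langerhans and dendritic cell markers 11 had lower values in knockout epidermis, and their summed level was 810.9 FPKM in wild-type and 573.7 FPKM in knockout epidermis. Cd207, which encodes langerin, was at 37.6 and 19.5 FPKM. Bst2 is also a surface marker of plasmacytoid dendritic cells. Siglech, a defining marker of these cells, was listed at 0 in both libraries, and of the 9 other markers on that list 4 were higher and 5 lower. The sum of that list, 4360 and 4478 FPKM, was almost all Ly6d, which keratinocytes also express. T cell markers, 4 higher and 3 lower of 7, summed to 70.8 and 72.9 FPKM, mostly from Thy1 at 50.3 and 49.4 FPKM. The receptor genes Trdc, Trac, Trbc1 and Trbc2, also on that list, had no row. Monocyte and macrophage markers, 4 higher and 3 lower of 7 above 0, summed to 15.2 and 14.2 FPKM with Fcgr1 at 0. Of the neutrophil markers Ly6g, Elane and Retnlg were at 0 in both libraries, and the list's sum, 216.4 and 661.3 FPKM, lay mostly in S100a8 and S100a9, which inflamed keratinocytes make as well.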

How the data were processed

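RNA-seq values of 2 libraries of imiquimod-treated ear epidermis, 1 per genotype, were used, and groups came from the genotype labels. Per the labels' protocols, dispase II (1 mg/ml, 1 h, 37 °C) freed the epidermis, and 3 µg of its total RNA went into each mRNA library. TopHat2 2.0.13 and Cufflinks 2.2.1 with mm10 are named per the submitters' processing notes; for annotation, strand and scaling nothing is given in the sources used here. Each locus has 1 FPKM value a library, per the file headers. Beside it stand the deposited log2 ratio, a score (the statistic of the test that the authors ran), its p-value and its q-value, all taken over as they were. Another 3 deposited tables, of spreadsheet settings, were set aside.

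Of 29246 rows, 26264 had a name and a RefSeq transcript; rows of the same name (22 names) were summed, which left 26242 genes, 18179 of them above 0 in at least 1 library. A difference is log2(FPKM + 1) of the knockout minus that of the wild type, which understates the difference of low genes; folds are ratios of FPKM. Members were found by name or by a comma-separated part of it. Every member is named; from each other list up to 4 genes with the largest difference and the 2 most abundant could be named. Cxcl10, Ifnb1, Ifi27l1 and other single genes were named after their values were seen. The members, lists and thresholds were chosen with earlier results of these data known.

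The table gives no counts. Fragments were estimated from the lowest step of FPKM times length over 2350 and 2362 single-transcript genes of 3 to 12 kb; the next step lay at ratios of 2.03 and 1.99, and genes scattered around the lowest step by 11.5% and 12.1%. Fragment numbers are therefore approximate, use 1 length per row although some rows hold further transcripts (Ifitm1, Ifi44 and Rtp4 among those given), and carry no interval. With 1 library per genotype no p-value was computed.

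Motifs were searched on both strands of RefSeq promoters (GRCm38.p6), and transcripts were aligned with blastn 2.17.0+ (at least 90% identity over 200 bases) to GENCODE M21. Alternatives were other pseudocounts, level filters, scalings and thresholds. The 2-fold count and the fragment estimate were tested on simulated data with counting noise only. Changes were placed only in genes at a mean of 5 FPKM or above, and most members lie below that level. Python 3.11.15 with numpy 2.4.6, pandas 2.3.3 and matplotlib 3.10.9 was used.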

Additional observations from a re-analysis of the deposited data

How the results depend on the processing

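Under the 10 alternatives run, no log2 difference of a single member changed sign, and of 181 recomputed 41 moved by over 1.5 times and 0.1, all by pseudocount. The 6 members at least 2-fold higher became 12 when the pseudocount was 0.1 FPKM, 1 when it was 5 FPKM, 12 at 1.5-fold and 1 at 4-fold, and 2 with at least 1 FPKM in wild-type epidermis or 5 FPKM in either. Over all genes 49 higher and 41 lower became 361 and 387 with the pseudocount of 0.1, 16 and 16 with that of 5, 174 and 195 at 1.5-fold and 11 and 12 at 4-fold, and the 49 became 20 and 24 with those filters. Members higher in knockout epidermis were 15 of 15 with at least 1 FPKM in wild-type epidermis and 11 of 11 with 5 FPKM in either. The median of the members was 0.73 with the pseudocount of 0.1 and 0.17 with that of 5.

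For the other lists, the oligoadenylate synthetase median was 1.09 with the pseudocount of 0.1, 0.21 with that of 5 and 0.092 with 1 FPKM in wild-type epidermis (3 genes). That of the interferon-gamma-inducible GTPases was 0.69, 0.037 and 0.80 (1 gene), also 0.80 with 1 FPKM in either library (3 genes), and that of the ligands -0.22 with the pseudocount of 0.1. The receptor and JAK-STAT median, -0.02, has no clear sign: it was 0.066 with 5 FPKM in either library, 0.00032 with upper-quartile scaling and 0.0026 with centring, which also took the median of all genes to 0.0072. Upper-quartile scaling and centring on the median gene, shifts of -0.02 each, left 32 members higher. No paired analysis was possible because there was 1 library per genotype. Members under 0.1 FPKM in wild-type epidermis, and Rtp4 and Ifitm1, rest on 0 to about 7 fragments there, so the size of their differences is poorly known.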

Other observations

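Genes outside the effector list were looked at for the same promoter letters. Of the 460 genes above 0 with a match to the response element core, 8 (1.74%) were at least 2-fold higher in knockout epidermis and 2 at least 2-fold lower; of the genes with an entry and no match 16 (0.137%) were higher and 17 lower. The 8 were the members Isg15, Bst2 and Ifit1, the GTPase gene Gbp2, the synthetase gene Oas1a, the apolipoprotein L genes Apol9a and Apol9b, and Esr1. Apol9a was at 0.27 FPKM in wild-type and 3.06 FPKM in knockout epidermis and Apol9b at 0.24 and 3.08 FPKM; they are close relatives, so their values are not independent. Esr1, which encodes estrogen receptor alpha and is not known as a classical interferon target, was at 4.65 and 16.3 FPKM. The median log2 difference was -0.02 for genes with a match and -0.02 for genes without, so the genes with a match were not shifted as a whole. The 8 hold members, Gbp2 and Oas1a, which were already given as higher, so their share partly repeats those results. These genes were named after their values were seen, and no test was made.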
